A study of Mus musculus with 8 samples.

Results

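The histone cluster genes of mouse liver were described in total RNA from 8 livers. Members were taken from the raw count table as every protein-coding gene whose GENCODE M21 symbol begins with Hist1h, Hist2h, Hist3h or Hist4. This gave 65 members among 49585 genes, of the 67 such genes that GENCODE M21 lists. By histone they were 6 genes of H1, 18 of H2A, 16 of H2B, 12 of H3 and 13 of H4. Of these, 52 lie in the Hist1 cluster on chromosome 13, 10 in Hist2 on chromosome 3, 2 in Hist3 on chromosome 11, and Hist4h4 lies alone on chromosome 6.

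All 8 mice ate a high-fat diet without added choline for 3 months, begun at 21 days of age. The control group LP+/+ had 3 livers without Alb-Cre, so that both Trp53 alleles stayed wild type in function: replicates 1 and 2 carried an unrecombined floxed allele (Trp53fl/+) and replicate 3 an unrecombined Trp53wm-R245W allele, which expresses wild-type p53 until Cre converts it. LPfl/+ had 2 livers with Alb-Cre and 1 deleted Trp53 allele, and LP245/+ had 3 livers with Alb-Cre and 1 allele converted to the missense mutant p53R245W. The study's text describes the LP+/+ mice in one place as carrying Alb-Cre, and the labels were followed here. By the labels, each comparison with LP+/+ also sets livers without Alb-Cre against livers with it. There the presence of Cre and the change in Trp53 cannot be told apart. Alb-Cre acts in hepatocytes and cholangiocytes, so macrophages, endothelial cells and other liver cells kept both wild-type alleles in each genotype. The libraries held 26304526 to 31370714 counts in genes. By their numbers they form 2 series, LP245/+ with LP+/+ replicates 2 and 3 in one, and LPfl/+ with LP+/+ replicate 1 in the other. The first principal component over the genes tested (31.1% of the variance) split the livers by series and not by genotype, with the former 5 livers between 15.1 and 28.2 and the latter 3 between -42.6 and -26.7. In such bulk RNA, fewer cells of a type and less RNA per cell cannot be told apart.

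Each nucleosome wraps DNA around a core of H2A, H2B, H3 and H4, and the linker histone H1 binds the DNA between cores. Most genes of the histone clusters are replication dependent: they are transcribed in S phase under the coactivator Npat, and their mRNA ends in a stem-loop bound by Slbp in place of a poly(A) tail. A minority also give polyadenylated mRNA, which can persist in cells that do not divide. Adult liver holds few cycling cells, and a library made from total RNA counts both kinds of transcript.

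The stem-loop was searched for by its name's consensus in the GENCODE M21 transcripts, on the coding strand. It was present after the stop codon of 44 of the 65 members. Of the remaining 21, 15 members have under 20 annotated bases after the stop codon, too few to hold the stem-loop. The other 6 have a longer annotated tail without it. Among these 6 is Hist1h2bc, the member with the most counts, at chr13:23684199-23692908 on the plus strand (GRCm38), whose annotated transcript has 2 exons and 742 bases after the stop codon. The stem-loops of leading members are shown because they separate H4 from the other histones. The stem-loop is in capitals with 5 flanking bases on each side, and the coordinates (GRCm38) are those of the capitals:
Hist1h1c, chr13:23739512-23739527, plus strand: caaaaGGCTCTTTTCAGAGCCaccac
Hist1h1e, chr13:23621782-23621797, minus strand: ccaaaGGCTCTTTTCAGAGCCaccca
Hist1h2bg, chr13:23571843-23571858, plus strand: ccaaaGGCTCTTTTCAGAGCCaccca
Hist1h3e, chr13:23561903-23561918, minus strand: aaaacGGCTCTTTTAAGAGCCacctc
Hist1h4c, chr13:23698089-23698104, minus strand: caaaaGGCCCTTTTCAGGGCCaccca
Hist1h4d, chr13:23581950-23581965, plus strand: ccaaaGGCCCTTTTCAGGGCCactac
Hist1h4h, chr13:23531458-23531473, plus strand: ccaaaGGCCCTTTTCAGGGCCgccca
Hist2h4, chr3:96262939-96262954, minus strand: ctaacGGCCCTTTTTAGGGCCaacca
Hist1h4a, chr13:23760800-23760815, minus strand: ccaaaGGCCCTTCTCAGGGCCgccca
One 16-base form was shared by 24 members, among them Hist1h1c, Hist1h1e and Hist1h2bg, and none of these is an H4 gene. A second form, in Hist1h4c, Hist1h4d and Hist1h4h, was shared by 7 members, all H4. The form in Hist1h3e was shared by 6 members and that in Hist2h4 by 2, and Hist1h4a had a form of its own. The annotated transcript ended within 60 bases of the stem-loop in 21 members, as in Hist1h4h with 46 bases. It reached more than 500 bases past it in 11 members, as in Hist1h1c with 840 and Hist1h4d with 770.

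RefSeq promoter windows (GRCm38.p6, 250 bases before to 50 after the gene's start) were matched for 60 members. On either strand, TATAAA was found in 58.3% of the 60 windows and in 13.6% of all 32851 windows. CCAAT was found in 85.0% of the members' windows against 37.4% of all windows. It was present in each window of H1, H2A, H2B and H3, but in only 3 of 12 windows of H4. The octamer ATTTGCAT was found in 7 of 18 H2A windows and 5 of 14 H2B windows, in none of H1, H3 or H4, and in 1.7% of all windows. No motif shares bases with another in the windows shown. The windows of Hist1h2bg, which holds all 3 motifs, and of Hist1h4h, which holds none, are given with matches in capitals:
Hist1h2bg, chr13:23571150-23571449, plus strand: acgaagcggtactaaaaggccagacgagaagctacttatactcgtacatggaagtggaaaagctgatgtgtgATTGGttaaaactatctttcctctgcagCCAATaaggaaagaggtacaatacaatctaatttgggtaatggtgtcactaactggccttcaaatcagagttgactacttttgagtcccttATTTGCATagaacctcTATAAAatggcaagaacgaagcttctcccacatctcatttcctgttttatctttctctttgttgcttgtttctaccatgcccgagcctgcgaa
Hist1h4h, chr13:23530794-23531093, plus strand: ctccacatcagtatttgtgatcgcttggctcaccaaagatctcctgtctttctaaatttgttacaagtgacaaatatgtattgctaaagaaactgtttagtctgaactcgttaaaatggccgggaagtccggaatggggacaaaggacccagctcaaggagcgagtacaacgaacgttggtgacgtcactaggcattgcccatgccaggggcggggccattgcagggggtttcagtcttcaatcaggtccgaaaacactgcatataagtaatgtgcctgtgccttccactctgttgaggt
A match or its absence says only which letters lie in these windows.

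The 65 members summed to 85845 counts over the 8 livers, between 0.0268% of a library in LP245/+ replicate 3 and 0.0423% at most, with the other livers between. H4 genes gave 41.1% of the member counts, H2B 27.6%, H1 26.6%, H3 4.26% and H2A 0.523%. The 6 members with the most counts, Hist1h2bc, Hist1h1e, Hist1h4c, Hist1h1c, Hist1h4d and Hist1h4h, held 77.1% of them. At the other end, 12 members had no count in any liver and 21 had at most 3 counts in every liver. The testis linker histone Hist1h1t had between 1 and 3 counts, and Hist1h2ba, a testis H2B, had none. Of the 65 members, 38 passed the filter on low counts and were tested: 5 of 6 H1, 2 of 18 H2A, 9 of 16 H2B, 9 of 12 H3 and 13 of 13 H4.

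Low counts were found in members with shared sequence and in some with mostly unique sequence. STAR's gene counts leave out reads that map to more than 1 place, so a read pair wholly within identical copies is not counted. The shares below take each 76-base stretch alone, while a mate in unique sequence can still place a pair. Stretches that a gene shares with an overlapping gene count as shared too, although they map to 1 place. The share of 76-base stretches found in no other gene was 99.3% at the median H1 gene, 75.6% for H4, 51.4% for H2B, 41.3% for H3 and 28.5% for H2A. In 16 members under 20% of the stretches were unique, and 13 of these had at most 3 counts in every liver. Hist2h2aa1, whose sequence has no unique stretch, had 0 counts throughout. A count of 0 in such a gene does not show that it is silent. Another 6 members had at most 3 counts in every liver although at least 50% of their stretches are unique, among them the H2A genes Hist1h2ac (89.0% unique, 1 to 3 counts), Hist1h2ak (68.9%, 0 to 3 counts) and Hist1h2aa (82.9%, 0 counts). The other 3 of the 16 members under 20%, Hist1h3h, Hist1h4m and Hist1h4n, exceeded 3 counts in some liver, Hist1h4m with 11% unique and 89.0% shared with Hist1h4n.

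**Figure D1:**
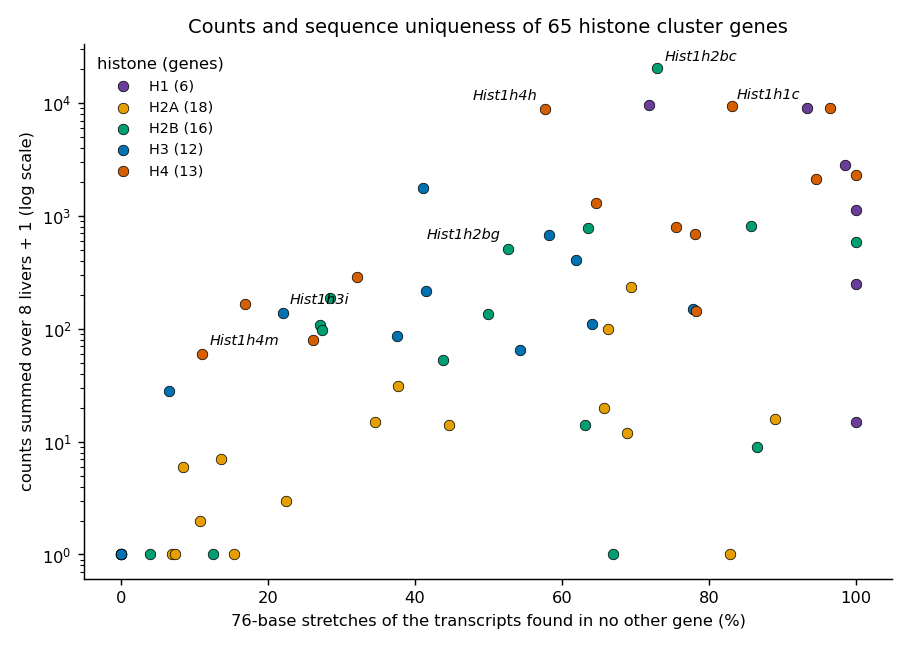
Each point is 1 of the 65 histone cluster genes, with the share of its 76-base stretches found in no other gene on the horizontal axis and its counts summed over 8 livers plus 1 on a log vertical axis, coloured by histone. Of the 16 genes under 20%, 13 had at most 3 counts in every liver, while Hist1h2bc (73.0% unique) is highest.

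Per length, Hist1h4h was the member with the highest level, at 83.3 ± 20.7 CPM (counts scaled to a common library total) per kb of exon (SD, 8 livers). Hist1h2bc, an H2B gene, followed at 76.9 ± 10, and these neighbours did not differ beyond their spread. Hist1h4c was at 50 ± 10.6, Hist1h4d at 34.6 ± 6.40 and the linker histone gene Hist1h1c at 25.1 ± 6.36. The ranges of 1 SD overlapped between Hist1h4c and Hist1h4d and between Hist1h4d and Hist1h1c, but not between Hist1h2bc and Hist1h4c. The leading H3 gene was Hist1h3e at 9.32 ± 2.47 and the leading H2A gene Hist2h2ac at 0.830 ± 0.347. For 21 members, Hist1h4h, Hist1h2bc, Hist1h4c and Hist1h4d included, the identifier version in the count table differs from that in GENCODE M21, so the length used may not be the one counted. Hist1h1e and Hist1h2be overlap on the minus strand of chromosome 13 in GENCODE M21, so their counts are less certain.

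The summed level of all members did not separate the genotypes. It was 378, 355 and 419 CPM in LP+/+ replicates 1 to 3 (384 ± 32.7, SD, n = 3). It was 379 and 398 in LPfl/+ (388 ± 13.2, n = 2) and 389, 402 and 286 in LP245/+ (359 ± 63.3, n = 3). The lowest liver was LP245/+ replicate 3, and the other 2 LP245/+ livers lay within the range of LP+/+. The log2 ratio, taken as the difference between group means of the log2 sums, was -0.11 for LP245/+ against LP+/+, and 0.05 without LP245/+ replicate 3. Against LPfl/+ it was -0.13, and 0.03 without that liver, and for LPfl/+ against LP+/+ it was 0.02. With livers of 1 library series only, the ratios to LP+/+ were -0.12 for LP245/+ and 0.04 for LPfl/+, the latter beside a single control.

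By histone, the H4 sum carried most of the spread. It was 143, 122 and 176 CPM in LP+/+, against 160.4 and 171 in LPfl/+ and 196, 173 and 96.9 in LP245/+. LP245/+ thus held both the highest and the lowest liver, and the genotypes overlapped. The log2 ratio of the H4 sum for LP245/+ against LP+/+ was 0.03, and 0.34 without LP245/+ replicate 3. The H3 sum had the same outlying liver, with 15.7, 16.4 and 16.9 CPM in LP+/+, against 14.3 and 15.2 in LPfl/+ and 18.6, 20.4 and 10.7 in LP245/+.

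The H2B sum was lower in each LP245/+ liver than in each LP+/+ liver. It was 112, 114 and 117 CPM in LP+/+, against 95.3 and 108 in LPfl/+ and 93.2, 97.6 and 89.3 in LP245/+. Hist1h2bc alone accounted for this order: the other 15 H2B genes summed to 12.4, 12.8 and 14.5 CPM in LP+/+, against 17.2 and 14.0 in LPfl/+ and 16.1, 16.6 and 12.1 in LP245/+, and overlapped. The H1 sum was 105, 100.3 and 109 CPM in LP+/+, against 107 and 102 in LPfl/+ and 79.4, 109 and 86.6 in LP245/+, again overlapping. The H2A sum was 1.77, 1.65 and 1.26 CPM in LP+/+, against 2.11 and 2.03 in LPfl/+ and 2.24, 1.90 and 2.86 in LP245/+. It did not overlap between LP+/+ and either other genotype, but it rested on 449 counts over the 8 livers. No test was made on these sums.

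**Figure D2:**
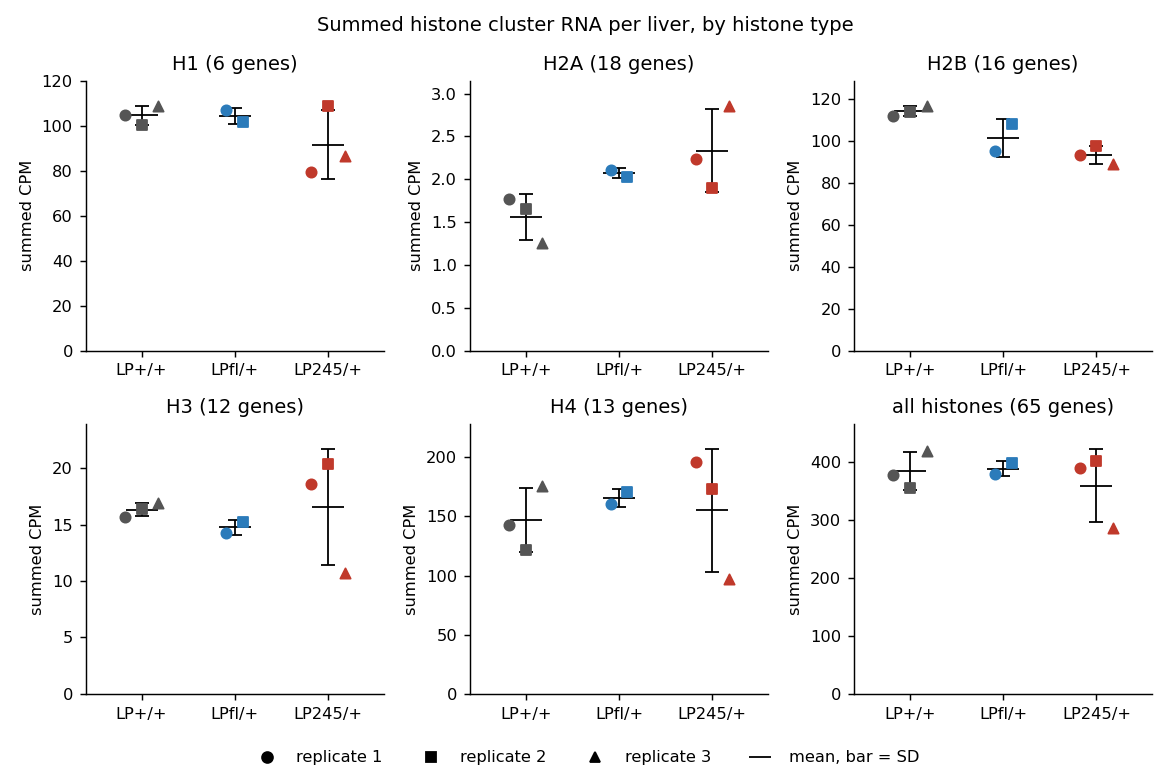
Summed CPM of the genes of each histone in each liver, by genotype, with the mean and SD; each vertical axis starts at 0. In LP245/+ replicate 3 (triangle) the H4 sum is 96.9 and the H3 sum 10.7, each the lowest of the 8 livers.

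The single H4 genes were looked at after the low H4 sum of LP245/+ replicate 3 was seen. They make up that sum, so their counts are not separate support for it. LP245/+ replicate 3 was the lowest liver of its genotype for 12 of the 13 H4 genes (37.3% of all genes tested). It was the lowest of all 8 livers for 8 of 13 (61.5%), against 16.1% of all 16496 genes tested. It was the lowest of 8 for 20% of the other 25 tested members. LP245/+ replicate 1 was the highest of 8 for 7 of 13 H4 genes (53.8%), against 14.8% of all genes. Among LP+/+ livers, replicate 2 was the lowest for 7 of 13 H4 genes, against 31.7% of all genes. By transcript end, members ending within 60 bases of the stem-loop summed to 30.2 CPM in LP245/+ replicate 3 and to 40.8 to 63.2 in the other 7 livers, but the H4 gene Hist1h4h holds 74.9% of the counts of that class. Members whose transcripts reach more than 500 bases past it summed to 125 CPM in that liver and 145 to 175 in the others. The 6 members with a tail and no stem-loop, with 92.2% of their counts in Hist1h2bc, did not follow, with 85.4 CPM in that liver and 84.4 to 110.2 in the others.

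The RNA component of RNase P, Rpph1, which has no poly(A) tail, was lowest in LP245/+ replicate 3 and next lowest in LP+/+ replicate 2, as was the H4 sum (named after its values were seen). Its normalized counts were 85673, 34770.3 and 44287 in LP+/+, against 62053 and 63569 in LPfl/+ and 76026, 54115 and 27548 in LP245/+. Rn7sk, the most abundant such RNA, was lowest in LP+/+ replicate 2 too, at 242913, but stood at 330259 in LP245/+ replicate 3. What these RNAs and the H4 genes share across livers was not tested.

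**Figure D3:**
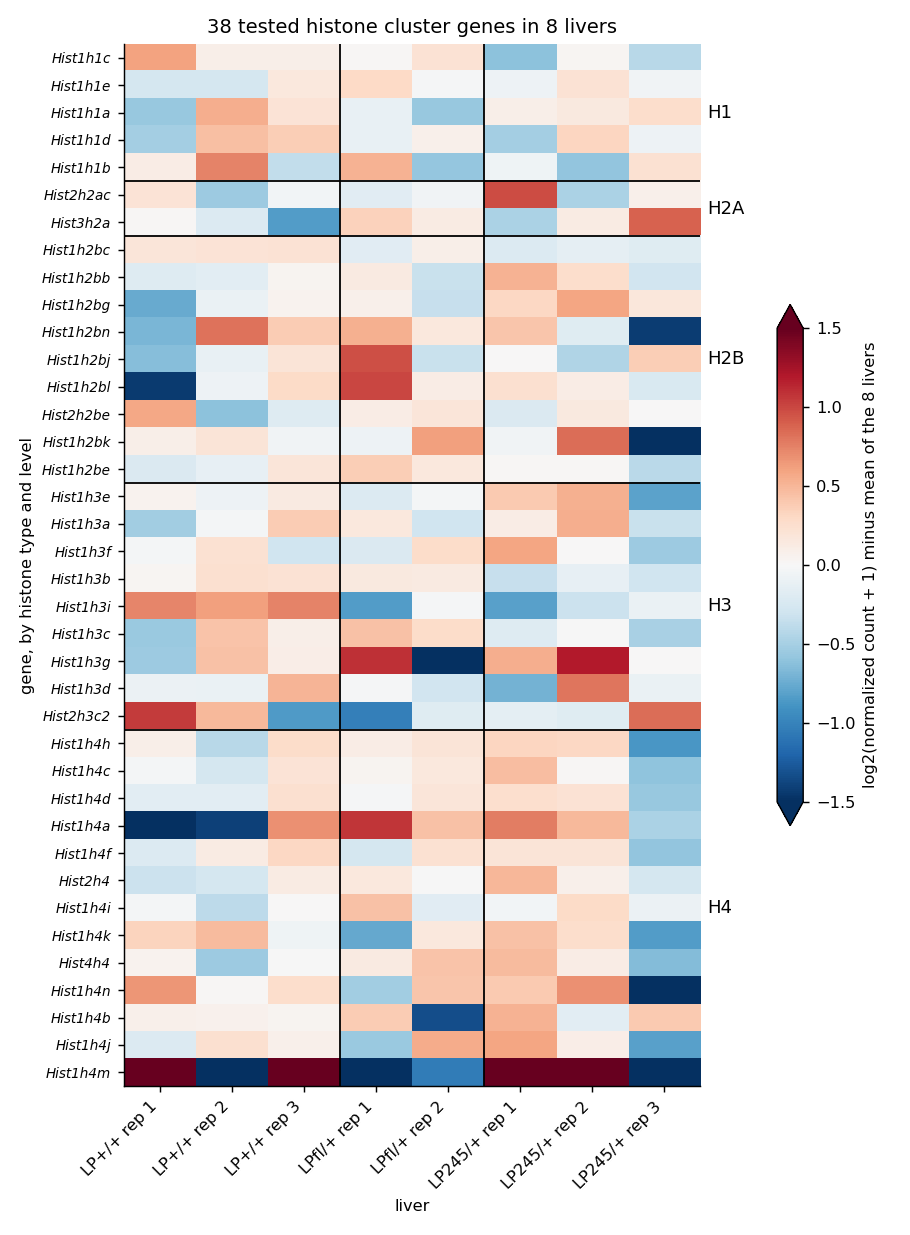
Heat map of the 38 tested histone cluster genes (rows, by histone and level) in 8 livers (columns); colour is log2(normalized count + 1) minus the gene's mean over the livers, and ends at -1.5 and 1.5. Most H4 rows are blue in the last column, LP245/+ replicate 3, which was the lowest of 8 livers for 8 of 13 H4 genes.

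The alleles were checked first. Trp53 itself had normalized counts of 226, 258 and 202 in LP+/+, against 127 and 178 in LPfl/+ and 318, 295 and 194 in LP245/+. LPfl/+ lay below LP+/+ without overlap, by a log2 fold change of -0.58 ± 0.24 (SE), with an adjusted p of 0.718 by edgeR's quasi-likelihood test. Gene counts do not tell the R245W transcript from the wild type. Cdkn1a, a p53 target and inhibitor of the cell cycle, had 188, 138 and 184 in LP+/+, against 75.3 and 100.4 in LPfl/+ and 14.5, 25.3 and 27.6 in LP245/+. It was the 1 gene of 16496 past the cutoff for LP245/+ against LP+/+ (log2 fold change -2.91 ± 0.27, adjusted p = 0.0155, edgeR). That call was lost without LP+/+ replicate 3 (log2 fold change -2.85, adjusted p = 0.103) and without LP245/+ replicate 2 (-3.00, adjusted p = 0.203), with a change of like size, and DESeq2 gave an adjusted p of 6.17e-18. LP245/+ replicate 3 did not stand apart from its group in Cdkn1a.

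The cutoff was a log2 fold change of 1 or more in size together with an adjusted p of at most 0.05. No histone gene passed it in any comparison. The share of all genes past it was 0.00606% for LP245/+ against LP+/+, 0.0% for LPfl/+ against LP+/+ and 0.0% for LP245/+ against LPfl/+ by edgeR, and 0.0607%, 0.0547% and 0.328% by DESeq2. The smallest adjusted p of a member was 0.795, 0.697 and 0.623 in these comparisons (edgeR). DESeq2 gave 0 histone genes past the cutoff in each as well. The 3 comparisons share livers and are not independent of each other.

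For LP245/+ against LP+/+, 3 of 38 members (Hist1h2bc, Hist1h1c and Hist1h3i) were lower at an unadjusted p under 0.05, against 2.38% of all genes, and 1 (Hist1h2bg) was higher, against 3.55%. In either direction these were 4 of 38, against 5.93%. DESeq2 gave the same counts. The median log2 fold change of the 38 was 0.03, beside 0.00 for all genes tested, and 16 of 38 were below 0, against 49.4% of all genes. Without LP245/+ replicate 3 the median was 0.17. By histone the medians were -0.21 for H1, -0.02 for H2B, 0.01 for H3, 0.04 for H4 and 0.53 for the 2 H2A genes. The values of livers did not overlap for 4 members that were lower (Hist1h2bc, Hist1h1c, Hist1h3b and Hist1h3i) and 1 that was higher (Hist1h2bg), against 5.48% and 6.27% of all genes.

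Hist1h2bc encodes an H2B and had the smallest p of the members. Its normalized counts were 2845, 2891 and 2909 in LP+/+, against 2219.9 and 2664 in LPfl/+ and 2180, 2285 and 2206 in LP245/+. All LP+/+ livers lay above all livers with a recombined allele, and LPfl/+ replicate 1 lay among the LP245/+ livers. The log2 fold change was -0.37 ± 0.10 (unadjusted p = 0.0037, adjusted p = 0.795) for LP245/+ and -0.24 ± 0.11 (unadjusted p = 0.0562, adjusted p = 0.731) for LPfl/+, each against LP+/+. The LPfl/+ value was -0.12 without LPfl/+ replicate 1 and -0.39 without LPfl/+ replicate 2. Between LP245/+ and LPfl/+ it was -0.13 ± 0.11 (adjusted p = 0.782).

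Hist1h1c encodes a linker histone H1. Its normalized counts were 1641, 1148 and 1148 in LP+/+, against 1090.1 and 1253 in LPfl/+ and 708, 1105 and 808 in LP245/+. The LP245/+ livers lay below LP+/+, with replicate 2 just under the 2 lower controls. The log2 fold change was -0.58 ± 0.19 for LP245/+ against LP+/+ (unadjusted p = 0.0121, adjusted p = 0.795), and -0.16 ± 0.21 for LPfl/+. The other 5 H1 genes summed to 47.6, 60 and 68.5 CPM in LP+/+ and 54.3, 70.0 and 58.3 in LP245/+, so the lower values were not shared by H1 as a whole. Hist1h1e, the other abundant H1 gene, had a log2 fold change of 0.15 ± 0.15.

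Hist1h3i and Hist1h3b encode H3 and were, with Hist1h2bc, listed by slope in the study on these same livers, so their direction here is not independent evidence. Hist1h3i (chr13:21782960-21783370, minus strand) had normalized counts of 26.1, 24.0 and 26.4 in LP+/+, against 8.14 and 15.2 in LPfl/+ and 8.30, 12.1 and 14.3 in LP245/+. Both recombined genotypes lay below LP+/+ without overlap and overlapped each other. The log2 fold change was -1.12 ± 0.35 for LP245/+ (unadjusted p = 0.00925, adjusted p = 0.795) and -1.11 ± 0.40 for LPfl/+ (unadjusted p = 0.0186, adjusted p = 0.697). The LPfl/+ value was -0.75 without LPfl/+ replicate 1 (unadjusted p = 0.142, edgeR) and -1.64 without LPfl/+ replicate 2. These are small counts, between 8 and 28 a liver, and 22.0% of the gene's 76-base stretches are unique, with 69.9% shared with Hist1h3h. Hist1h3b (chr13:23752267-23752886, plus strand) had 27.1, 31.6 and 31.1 in LP+/+, against 29.5 and 29.4 in LPfl/+ and 20.8, 24.3 and 21.5 in LP245/+. Its LP245/+ livers lay below both other genotypes without overlap, with a log2 fold change of -0.42 ± 0.24 against LP+/+ (adjusted p = 0.834).

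Hist1h2bg, an H2B gene whose promoter is printed above, went the other way from Hist1h2bc. It had 35.7, 56.6 and 63.1 in LP+/+, against 64.1 and 47.7 in LPfl/+ and 75.8, 92.1 and 68.4 in LP245/+. The LP245/+ livers were the 3 highest of the 8. The log2 fold change against LP+/+ was 0.61 ± 0.26 (unadjusted p = 0.0399, adjusted p = 0.831, edgeR). It ranged from 0.40 to 0.77 with 1 liver left out. The unadjusted p was not under 0.05 with library series as a covariate or with a replicate block. Nor was it without LP+/+ replicate 1, LP+/+ replicate 2 or LP245/+ replicate 2. Of the gene's 76-base stretches, 42.4% are shared with Hist1h2bc.

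The abundant H4 genes showed no shift between genotypes beyond their spread. Hist1h4h had normalized counts of 1143, 802 and 1301 in LP+/+, against 1158 and 1229 in LPfl/+ and 1342, 1331 and 587 in LP245/+. Hist1h4c had 1118, 953 and 1317, then 1173 and 1273, then 1571, 1156 and 753 in the same order. Hist1h4d had 988, 982 and 1293, then 1088 and 1248, then 1313, 1282 and 741. For each of the 3 genes LP245/+ replicate 3 was the lowest liver of all 8, and their log2 fold changes for LP245/+ against LP+/+ were 0.01 ± 0.29, 0.05 ± 0.23 and 0.04 ± 0.21. With 1 liver left out these ranged from -0.18 to 0.30, from -0.24 to 0.27 and from -0.11 to 0.25. Hist1h3e, the leading H3 gene, had 222, 203 and 236 in LP+/+, against 185 and 209.9 in LPfl/+ and 280.3, 311 and 122 in LP245/+. Here LP245/+ replicates 1 and 2 were the highest livers and replicate 3 the lowest, with a log2 fold change of 0.11 ± 0.29. That value was 0.42 without LP245/+ replicate 3 and below 0 without LP245/+ replicate 1 or replicate 2, at -0.13 without the latter.

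**Figure D4:**
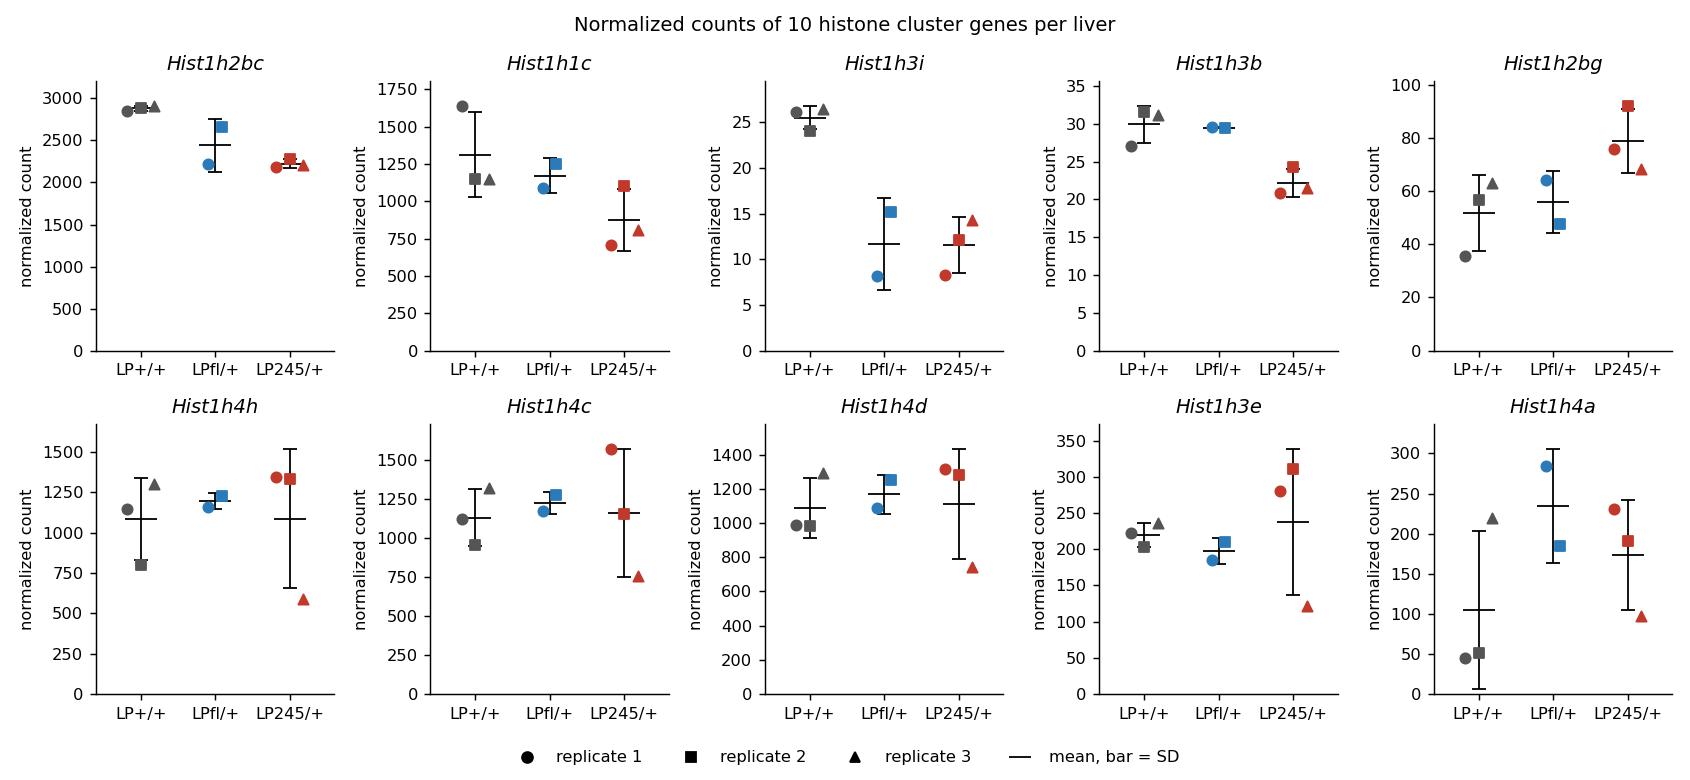
Normalized counts of 10 histone cluster genes in each liver by genotype, with mean and SD; each vertical axis starts at 0. Hist1h2bc, Hist1h1c, Hist1h3i and Hist1h3b are lower and Hist1h2bg higher in LP245/+ than in LP+/+ without overlap, and in the H4 genes Hist1h4h, Hist1h4c and Hist1h4d LP245/+ replicate 3 (triangle) is the lowest liver.

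Other H4 genes varied between livers of 1 genotype more than between genotypes (named after their values were seen). Hist1h4a had 44.4, 50.8 and 219 in LP+/+, against 285 and 184 in LPfl/+ and 231, 190.3 and 97.1 in LP245/+. The 2 lowest livers were controls, and the third control lay among the recombined livers. Hist1h4m had raw counts of 24, 0 and 12 in LP+/+, against 0 and 1 in LPfl/+ and 11, 11 and 0 in LP245/+, so that each genotype held a liver at 0. Hist1h4m had the widest spread of any tested member, with a coefficient of variation of 116% over the 8 livers, against 13.2% for Hist1h2bc.

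For LPfl/+ against LP+/+, 1 of 38 members (Hist1h3i) was lower at an unadjusted p under 0.05 and none was higher, against 2.67% and 4.22% of all genes (6.89% in either direction). DESeq2 gave the same counts, 1 and 0. The median log2 fold change was 0.06, beside 0.00 for all genes, and 17 of 38 were below 0, against 50.2%. Groups did not overlap for 2 lower members, Hist1h2bc and Hist1h3i, against 12.6% of all genes, and 2 higher, Hist3h2a and Hist4h4, against 12.4%. Hist3h2a, an H2A gene, had 28.0, 24.0 and 15.1 in LP+/+ and 35.6 and 30.4 in LPfl/+ (log2 fold change 0.56 ± 0.42, adjusted p = 0.813). Hist4h4 (chr6:136801553-136804415, minus strand), the H4 gene outside the larger clusters, had 267, 176 and 256 in LP+/+ and 282 and 347 in LPfl/+ (log2 fold change 0.43 ± 0.30, adjusted p = 0.797). In LP245/+ both overlapped the controls. With 1 liver left out the LPfl/+ value ranged from 0.34 to 0.76 for Hist3h2a and from 0.26 to 0.56 for Hist4h4. Under other settings each fell as low as 0.24.

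For LP245/+ against LPfl/+, which asks whether the mutant allele differs from loss of 1 allele, 0 of 38 members had an unadjusted p under 0.05 by edgeR or by DESeq2. The shares of all genes were 4.44% lower, 4.07% higher and 8.51% in either direction by edgeR. The smallest unadjusted p was that of Hist1h1c, 0.0736, with a log2 fold change of -0.42 ± 0.21 (adjusted p = 0.623). Of the 38, 22 were below 0, against 49.2% of all genes. Their median was -0.03, and 0.17 without LP245/+ replicate 3. Groups did not overlap for 3 lower members (Hist1h2be, Hist1h3b and Hist1h3c), against 13.5% of all genes, and 2 higher (Hist1h1a and Hist1h2bg), against 11.9%. With library series as a covariate the log2 fold changes of these 2 turned from 0.50 and 0.50 to -0.47 and -0.24, while Hist1h2be, Hist1h3b and Hist1h3c moved from -0.37, -0.40 and -0.61 to -0.63, -0.62 and -1.49. Hist1h1a, a linker histone gene, had 125 and 91.2 in LPfl/+ and 144, 149.8 and 162 in LP245/+, while the LP+/+ livers spanned both, at 90.8, 198 and 156. Hist1h2be had 130.2 and 112 in LPfl/+ and 102, 102 and 75.6 in LP245/+, and Hist1h3c had 18.3 and 16.2, then 11.4, 13.2 and 9.19. The 2 genotypes share no series of library numbers, so a difference between series and one between these genotypes cannot be told apart directly.

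**Figure D5:**
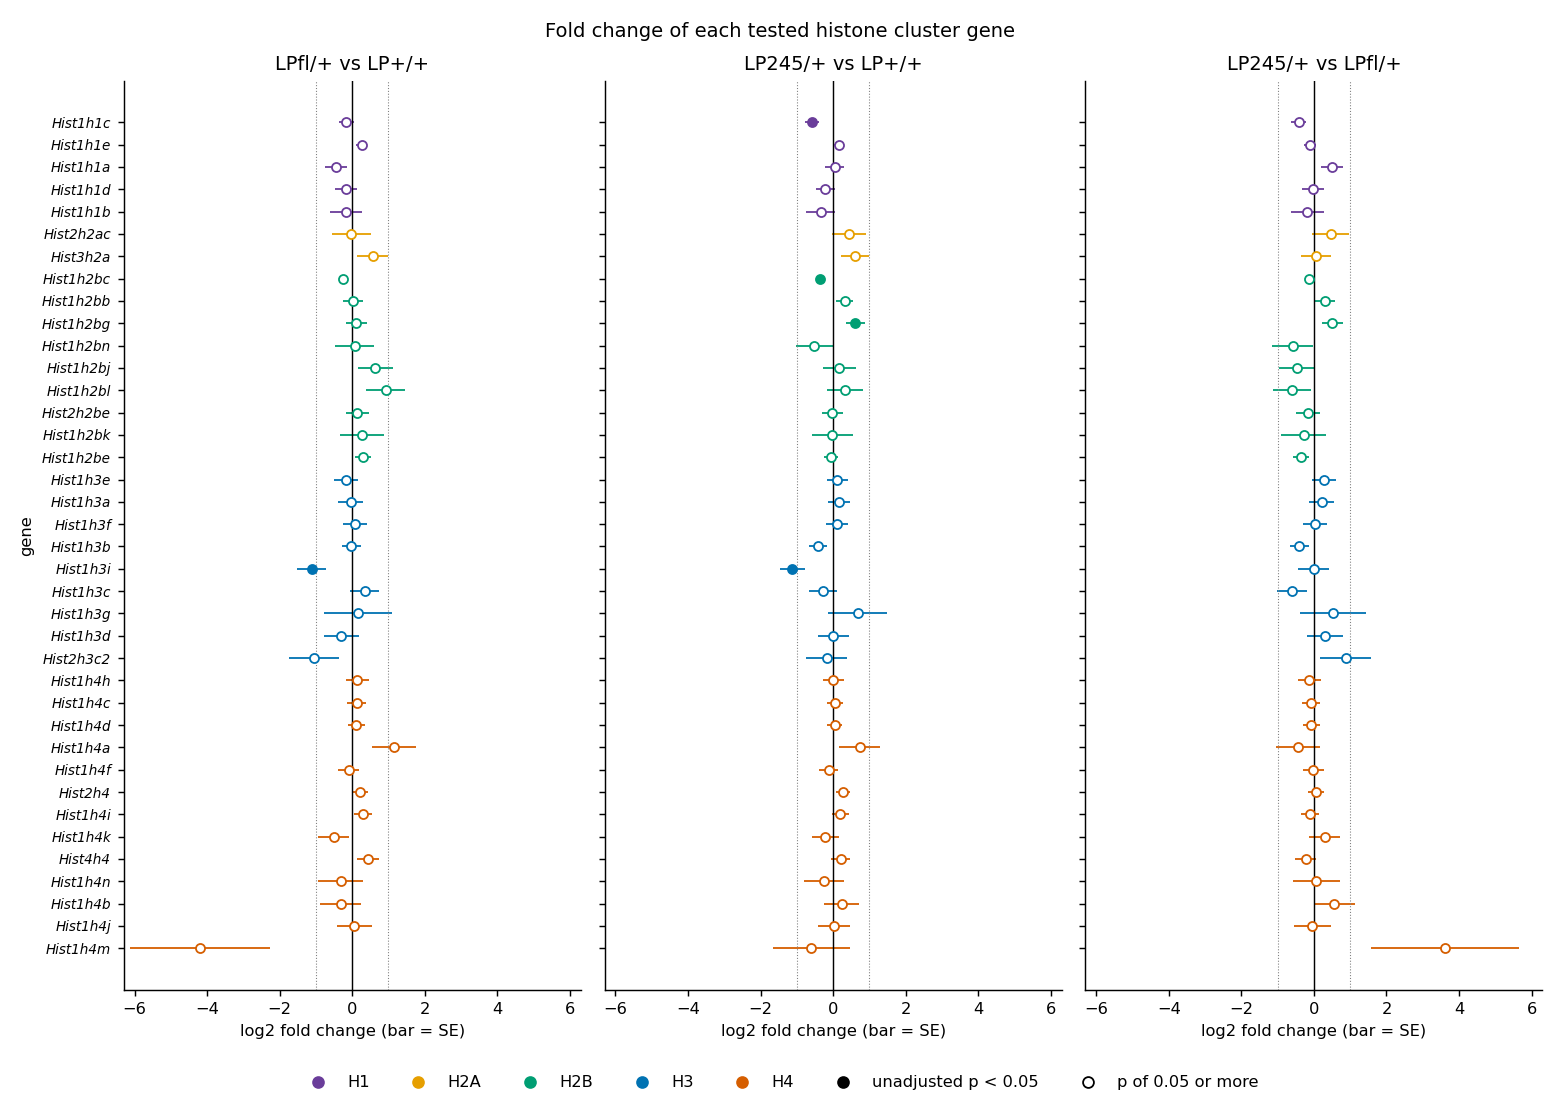
Log2 fold change with SE of each of the 38 tested histone cluster genes in the 3 comparisons, coloured by histone; filled points have an unadjusted p under 0.05 and dotted lines mark a log2 fold change of -1 and 1. Most genes lie near 0, and the filled points are Hist1h2bc, Hist1h1c, Hist1h3i and Hist1h2bg in LP245/+ against LP+/+ and Hist1h3i in LPfl/+ against LP+/+.

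With the genotypes coded as steps 1, 2 and 3 in the order LP+/+, LPfl/+, LP245/+, no member had an adjusted p of 0.05 or less, against 0.0121% of all genes. At an unadjusted p under 0.05, 3 members were lower with each step, against 1.95% of all genes, and 1 was higher, against 3.16%. Slopes below 0 of any size were found for 16 of 38, against 49.3%. Hist1h2bc had a slope of -0.18 ± 0.05 on the log2 scale per step, Hist1h1c -0.29 ± 0.09, Hist1h3i -0.58 ± 0.18 and Hist1h2bg 0.31 ± 0.13, each with an adjusted p of 0.914 (edgeR). The LPfl/+ level of Hist1h3i, 11.7 ± 5.0, was that of LP245/+, 11.6 ± 3.04, so its slope does not rest on a graded order.

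The genes that make, cut and carry histone mRNA and protein were given for the same livers. Of 20 tested genes for histone pre-mRNA processing and decay, 1 was lower and 0 higher at an unadjusted p under 0.05 in LP245/+ against LP+/+ (2.38% and 3.55% of all genes). The 1 was Snrpb, a core protein of spliceosomal snRNPs, with a log2 fold change of -0.25 ± 0.09 (adjusted p = 0.795, edgeR). None had such a p for LPfl/+ against LP+/+ or LP245/+ against LPfl/+, beside 6.89% and 8.51% of all genes. Slbp, the stem-loop binding protein, had normalized counts of 280.2, 293 and 322 in LP+/+, against 294 and 299 in LPfl/+ and 247, 297 and 341 in LP245/+. Its highest value fell in LP245/+ replicate 3, the liver lowest in H4. Npat, the histone gene coactivator, had 402, 388 and 466 in LP+/+, against 402 and 436 in LPfl/+ and 508, 437 and 492 in LP245/+, with a log2 fold change for LP245/+ against LP+/+ of 0.20 ± 0.11 (adjusted p = 0.831).

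Of 18 histone chaperones, Nap1l1, which carries H2A and H2B dimers, was the 1 gene under an unadjusted p of 0.05, beside 5.93% of all genes against LP+/+ and 8.51% against LPfl/+. It had 936, 1016 and 916 in LP+/+, against 970.1 and 1069.6 in LPfl/+ and 744, 778 and 856 in LP245/+, below both other genotypes without overlap. Its log2 fold change was -0.26 ± 0.09 against LP+/+ (adjusted p = 0.795) and -0.36 ± 0.10 against LPfl/+ (adjusted p = 0.394). Of 10 tested replacement variants, most of which are made outside S phase from polyadenylated mRNA, none had an unadjusted p under 0.05 for LP245/+ against LP+/+. H2afx, the variant phosphorylated at DNA breaks, whose gene can also give a stem-loop mRNA without a poly(A) tail, was lower in LPfl/+ (62.0 and 67.9) than in LP+/+ (94.7, 126 and 88.5) and LP245/+ (99.7, 113 and 80.7), with adjusted p of 0.697 and 0.542. The variant with the most counts, H3f3b, had a log2 fold change of -0.03 ± 0.11 for LP245/+ against LP+/+. The 12 variants summed to 348 to 410 CPM across the livers, a total of the same order as the cluster genes.

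Of 35 tested S-phase and DNA replication genes, 3 were lower and 0 higher at an unadjusted p under 0.05 for LP245/+ against LP+/+, against 2.38% and 3.55% of all genes, and their median log2 fold change was -0.05. The proliferation marker Mki67 had 229.9, 267 and 261 in LP+/+, against 139 and 165 in LPfl/+ and 172, 182 and 186 in LP245/+, and did not overlap between LP+/+ and either genotype. Its log2 fold change was -0.48 ± 0.13 for LP245/+ (adjusted p = 0.795) and -0.73 ± 0.15 for LPfl/+ (adjusted p = 0.697). The others were E2f2, at -0.65 ± 0.28, and the maintenance methyltransferase Dnmt1, at -0.26 ± 0.11. For LPfl/+ against LP+/+, 3 of 35 were lower at that p (Mki67, Ccna2 and Rrm2), against 2.67% of all genes, and 1 higher (Pola1), against 4.22%. There 26 of 35 were below 0, beside 50.2% of all genes, with a median of -0.10. For LP245/+ against LPfl/+ 1 was lower (Cdt1) and 1 higher (Rrm2), beside 4.44% and 4.07%. In that comparison 10 of 35 were below 0, beside 49.2% of all genes, with a median of 0.12. Rrm2, the S-phase subunit of ribonucleotide reductase, had 160.4, 125 and 172 in LP+/+, against 106 and 114 in LPfl/+ and 172, 147 and 171 in LP245/+, so LP245/+ replicate 3 was not low in it. That liver was the lowest of all livers in Dnmt1, at 443, and in Cdt1, at 25.5.

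Small RNAs without a poly(A) tail gave a comparison within the same libraries. Of 13 tested, 4 were higher and 0 lower at an unadjusted p under 0.05 for LP245/+ against LP+/+ (3.55% and 2.38% of all genes), with a median log2 fold change of 0.34. Of the 4, Rny3, a Y RNA, had the largest change, at 0.75 ± 0.19 (adjusted p = 0.795), with 1573, 2004 and 1119.7 in LP+/+, against 2039.9 and 2282 in LPfl/+ and 2787, 2294 and 2787 in LP245/+. Rny1, Scarna6 and Rn7sk were at 0.61 ± 0.27, 0.57 ± 0.20 and 0.33 ± 0.15. LP245/+ replicate 3 was therefore not low in Rny3, unlike in H4 genes and Rpph1.

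Each listed marker of the hepatocyte, macrophage, lymphocyte, erythroid, endothelial, stellate and cholangiocyte lists had counts in all 8 livers. Of the neutrophil markers, Mpo was at 0 in 7 of 8 livers, and Elane, Ngp and Camp were at 0 in some and at most 7 in any. Of 8 hepatocyte markers, led by Alb, none had an unadjusted p under 0.05 for LP245/+ against LP+/+. Nor had any of 6 macrophage, 5 endothelial, 6 stellate or 5 cholangiocyte markers, or of the 6 lymphocyte and 2 neutrophil markers tested. Among all genes 5.93% had such a p in either direction, so its absence in lists this short says little. Of 6 erythroid markers, 1, Hba-a1, was lower, beside 2.38% of all genes (log2 fold change -0.57 ± 0.25, and -0.81 to -0.34 with 1 liver left out). The erythroid list, led by Hbb-bs, summed to 650.1, 684 and 489.9 CPM in LP+/+, against 346 and 450.3 in LPfl/+ and 551, 324 and 645 in LP245/+. For LPfl/+ against LP+/+, all 6 erythroid markers had log2 fold changes below 0, with a median of -0.83, against 50.2% of all genes below 0. Of the 6, 3 had an unadjusted p under 0.05 (2.67% of all genes were lower at that p), among them Hba-a1 at -0.82 ± 0.29 (adjusted p = 0.697, edgeR). With 1 liver left out that value ranged from -1.23 to -0.52. Beside the same 50.2%, values below 0 were also found for 7 of 8 hepatocyte, 4 of 6 lymphocyte and 5 of 5 endothelial markers. Of these, Ass1 (-0.43), Cd79b (-0.92) and Cdh5 (-0.39) had an unadjusted p under 0.05, as had the neutrophil marker S100a9 (0.69). The adjusted p were 0.709, 0.697, 0.704 and 0.704 (edgeR). With 1 liver left out, Ass1 ranged from -0.73 to -0.20 and Cd79b from -1.12 to -0.75. Likewise Cdh5 ranged from -0.46 to -0.36 and S100a9 from 0.62 to 0.78. All 6 macrophage markers had log2 fold changes below 0 for LP245/+ against LPfl/+ (median -0.34, beside 49.2% of all genes below 0) and against LP+/+ (median -0.17, beside 49.4%). In the former comparison 0 of 8 hepatocyte, 0 of 6 erythroid and 0 of 5 endothelial markers were below 0 (medians 0.14, 0.37 and 0.22). So were 1 of 6 lymphocyte, 2 of 6 stellate, 1 of 5 cholangiocyte and 2 of 2 neutrophil markers tested. Against LPfl/+, Cd68 (-0.38), Vsig4 (-0.33) and the neutrophil marker S100a9 (-0.71) had an unadjusted p under 0.05 (4.44% of all genes were lower at that p). The adjusted p were 0.547, 0.536 and 0.509 (edgeR). With 1 liver left out, Cd68 ranged from -0.50 to -0.24, Vsig4 from -0.51 to -0.12 and S100a9 from -0.82 to -0.57. Each marker named here for an unadjusted p under 0.05 lost it under some alternative. The macrophage list, led by Clec4f, summed to 334, 395 and 337 CPM in LP+/+, against 451 and 325 in LPfl/+ and 285, 346 and 312 in LP245/+. The part of cell makeup in the histone values was not tested.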

How the data were processed

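Per the labels and the study's methods, the authors made stranded total RNA libraries from liver, sequenced them as 76-bp pairs, aligned them with STAR to GRCm38 and summarised reads per GENCODE gene (release, STAR version and strand setting not given in the sources used here). The deposited table holds raw counts. Identifiers were matched to GENCODE M21 without version: 49326 of 49585 matched. Counts were tested with edgeR 4.0.16 (TMM, filterByExpr, glmQLFit and glmQLFTest, all 8 livers, no covariate, Benjamini-Hochberg over 16496 genes). The SE is the log2 fold change over the root of F. Normalized counts are counts over DESeq2 1.42.0 size factors, and CPM uses TMM-scaled library sizes. Counts of 3 or fewer were taken as the floor of detection. Each liver is its own sample, and p-values measure the spread between these samples. The sources used here do not say whether the 2 series of library numbers are batches.

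Members, lists and tests were chosen with earlier results of these data known. Members were named by level per kb, by an unadjusted p under 0.05, by listing in the study, or by groups that do not overlap; other genes by level or p. Lists covered replacement variants, histone pre-mRNA processing, chaperones, S phase, small RNAs without a poly(A) tail and 8 sets of cell type markers. Alternatives were DESeq2, other scalings, other filters, the library series as a covariate, a replicate block, 2 groups only and each liver left out. The fits were tested on simulated data. Stem-loops and unique 76-base stretches were found in GENCODE M21 transcripts, and motifs in RefSeq promoters (Python 3.11.15, pandas 2.3.3, matplotlib 3.10.9).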

Additional observations from a re-analysis of the deposited data

How the results depend on the processing

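No alternative brought a histone gene past the cutoff in any comparison or past an adjusted p of 0.05 over the genotype steps. Of 272 values for the histone genes as a group under alternatives, 236 kept within 1.5 times the count or within 1 SD between livers. Of 960 values for single genes and the H4 sum, 938 kept their direction and their side of the threshold or moved by less than 1 SD. Among single genes, 15 values changed sign. The log2 ratio of the H4 sum, not among these 15, also changed sign with 1 liver left out. It ranged from -0.17 to 0.34 for LP245/+ against LP+/+ and from -0.36 to 0.15 against LPfl/+.

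Counts of members under an unadjusted p of 0.05 were small and moved with the fit. With a covariate for library series, none was higher for LP245/+ against LP+/+ or over the steps (0 in each, beside 4.13% and 4.47% of all genes in the same fit), 2 were lower and 2 higher for LPfl/+ against LP+/+ (2.42% and 2.95%), and 3 were lower and 1 higher for LP245/+ against LPfl/+ (2.70% and 2.58%). In that fit Hist1h1a and Hist1h2bg changed sign for LP245/+ against LPfl/+, to -0.47 and -0.24, and Hist1h4d for LP245/+ against LP+/+, to -0.03. With no filter on low counts, 2 were lower and 1 higher for LPfl/+ against LP+/+ (2.20% and 3.19% of all genes), and 1 lower and 1 higher for LP245/+ against LPfl/+ (3.47% and 3.07%). With at least 10 counts in every liver 0 were lower for LPfl/+ against LP+/+ (beside 2.95% of all genes), since Hist1h3i was then not tested. With only the 2 groups compared, 1 was lower and 2 higher for LP245/+ against LPfl/+ (5.11% and 4.39%). The cause of the other moves was not tested.

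Leaving out 1 LP+/+ or LP245/+ liver at a time gave 0 to 4 members higher for LP245/+ against LP+/+ (beside 2.21% to 4.24% of all genes). There were 4 without LP245/+ replicate 3 (4.24%) and 2 without LP+/+ replicate 3 (3.02%). There were 0 without LP+/+ replicate 1, LP+/+ replicate 2 or LP245/+ replicate 2 (4.17%, 2.96% and 3.57%). For LPfl/+ against LP+/+, 1 to 3 were lower and 0 to 2 higher (beside 1.65% to 4.79% and 2.65% to 6.88%). For LP245/+ against LPfl/+, 0 to 1 were lower and 0 to 2 higher (beside 3.53% to 5.51% and 2.93% to 6.46%). Over the steps, 0 to 2 were higher (beside 2.02% to 3.41%). With any 1 liver left out, the median log2 fold change for LP245/+ against LPfl/+ ranged from -0.16 to 0.17, the latter without LP245/+ replicate 3. Hist1h2bc for LP245/+ against LP+/+ ranged from -0.39 to -0.36, Hist1h1c from -0.79 to -0.39, Hist1h3i from -1.31 to -0.94 and Hist1h2bg from 0.40 to 0.77. For LPfl/+ against LP+/+, Hist1h2bc ranged from -0.39 to -0.12 and Hist1h3i from -1.64 to -0.75. For LP245/+ against LP+/+, signs changed for Hist1h3e (-0.13 to 0.42), Hist1h4c (-0.24 to 0.27), Hist1h4d (-0.11 to 0.25) and Hist1h4h (-0.18 to 0.30).

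Correlations of deviations from the group means were -0.08 to 0.03 for same-numbered livers. They were -0.11 to 0.08 for livers with different numbers. Deviations from the mean of so few livers offset each other within a group, so this check cannot exclude pairing by number. With a replicate block, 0 members were higher at an unadjusted p under 0.05 for LP245/+ against LP+/+, beside 3.13% of all genes. In that fit Hist1h4h changed sign to -0.05, and no histone call at the cutoff changed. Cdkn1a for LP245/+ against LP+/+ then had an adjusted p of 0.0596. The 27 members that were not tested had too few counts for the filter, some with mostly unique and some with shared sequence.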

Other observations

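Rprl3, a gene named for its likeness to the RNase P RNA, was chosen after its values were seen. It had raw counts of 367, 2 and 303 in LP+/+, against 323 and 535 in LPfl/+ and 508, 301 and 1 in LP245/+. The 2 livers at 1 and 2 counts, LP+/+ replicate 2 and LP245/+ replicate 3, were also the 2 lowest in Rpph1 and in the H4 sum, and Hist1h4m had 0 counts in both, as it had in LPfl/+ replicate 1. They belong to different genotypes and to the same series of library numbers. Rmrp, the RNA of the related enzyme RNase MRP, had 801, 879 and 815 normalized counts in LP+/+, against 840.0 and 1096 in LPfl/+ and 1222, 1004 and 742 in LP245/+, lowest in LP245/+ replicate 3 but not low in LP+/+ replicate 2. Malat1, a nuclear RNA whose mature form has no poly(A) tail, was lowest in LP+/+ replicate 2 at 50749.9, and stood at 58788 in LP245/+ replicate 3.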
